A study of Saccharomyces cerevisiae with 34 samples.

Results

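To ask what the loss of Psh1 changes in cells that make an excess of CENP-A (Cse4), psh1Δ pGAL-3Flag-CSE4 cells were compared with pGAL-3Flag-CSE4 cells by RNA-seq, both after 2 h of galactose (t2). The comparison holds 5 of the 34 libraries of the series: 3 of psh1Δ pGAL-3Flag-CSE4, from batches 1, 2 and 3, and 2 of pGAL-3Flag-CSE4, from batches 2 and 3. They were chosen by the genotype and time in their labels. All are MATa cells of the W303 background with the can1-100, ade2-1, his3-11, ura3-1, bar1-1, trp1-1, bud4 and RAD5 alleles by the study's strain list, and both genotypes keep their own CSE4 gene and carry a second, 3Flag-tagged copy behind the galactose promoter, integrated at the mutant leu2 locus with a LEU2 marker. In psh1Δ pGAL-3Flag-CSE4 the PSH1 gene was also deleted, with a KAN marker by the labels, although the study's strain list gives a HYG marker for the strain of batch 3. Cultures were asynchronous and grew at 23 °C on lactic acid before galactose was added, and samples taken before the addition are called t0. Each batch used a different strain of each genotype, so the spread between batches holds strain differences too. The same strains at t0 (3 and 2 libraries) and psh1Δ and WT cells at t2 (3 libraries each), which lack the inducible copy, serve to place the result.

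Cse4 is the histone H3 variant that replaces H3 in the centromeric nucleosome and on which the kinetochore is built. Psh1 is the ubiquitin ligase that binds excess Cse4 and marks it for the proteasome, and without it Cse4 driven from the galactose promoter accumulates in chromatin outside the centromere, most of all at promoters, and cells die. RNA-seq reads the messenger RNAs of the whole culture, so fewer cells expressing a gene and less RNA per cell cannot be told apart.

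The labels hold in these libraries, with exceptions to be kept in view. PSH1, the deleted gene, had 1, 0 and 0 counts in psh1Δ pGAL-3Flag-CSE4 at t2 in batches 1, 2 and 3, against 225 and 187 counts in pGAL-3Flag-CSE4 in batches 2 and 3, which is at least 62.8-fold lower when a library without a read is set to 3 counts. The 5 libraries hold 5352631 to 6000898 counts over 6209 genes. The batch 1 library of psh1Δ pGAL-3Flag-CSE4 stands apart: its 104 chromosome I genes had a median log2 ratio to WT of 0.85 at t2 and 0.94 at t0, whereas the other chromosomes of that library, and every chromosome of the other 4, lay between -0.05 and 0.06 at t2. The psh1Δ library of batch 1, from another strain that shares the PSH1 deletion but not the inducible gene, had the same feature at t2 (0.79). BAR1 reads were found in 1 of the 5 libraries, pGAL-3Flag-CSE4 of batch 2 (46.6 CPM), and 0 CPM in the other 4, although the strain list gives bar1-1 for all of them. Summed MATalpha markers were 52.8, 55.7 and 53.4 CPM in psh1Δ pGAL-3Flag-CSE4 and 56.1 and 59.7 CPM in pGAL-3Flag-CSE4, and summed MATa markers 1121, 650 and 920 CPM against 548 and 861 CPM. Of the 195 genes called higher below, 3 lie on chromosome I.

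**Figure D1:**
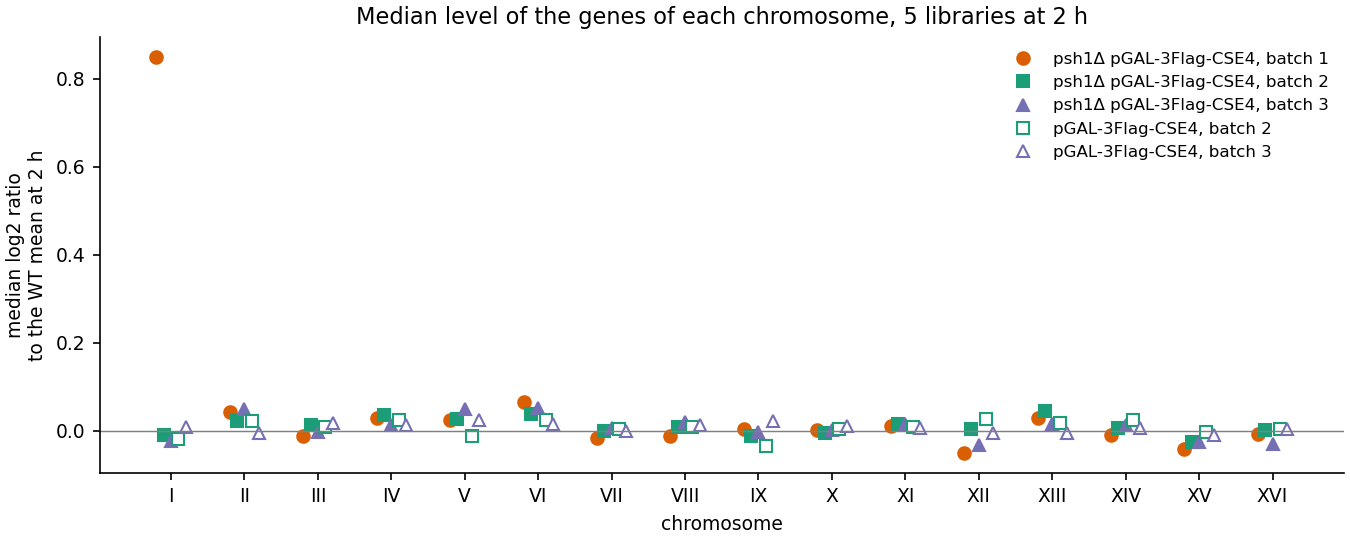
Median log2 ratio to the WT mean at t2 (vertical axis) over the genes of each chromosome (horizontal axis), in each of the 5 libraries; filled symbols are psh1Δ pGAL-3Flag-CSE4, open symbols pGAL-3Flag-CSE4. The single point far from 0 is chromosome I of the batch 1 psh1Δ pGAL-3Flag-CSE4 library, at 0.85.

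The induced gene itself came first. Reads of both copies of CSE4 are counted together. CSE4 stood at 21978, 14373 and 15151 CPM (the count scaled by library size with TMM factors) in psh1Δ pGAL-3Flag-CSE4 of batches 1, 2 and 3, against 11320 and 10829.8 CPM in pGAL-3Flag-CSE4 of batches 2 and 3. Every library without Psh1 was above both libraries with it, and the batch 1 library was the highest. The difference was 1.54-fold (log2 0.62, SE 0.16, adjusted p 0.0222, edgeR quasi-likelihood test). It was not called without the batch 1 psh1Δ pGAL-3Flag-CSE4 library (log2 0.40, adjusted p 0.0759) or without pGAL-3Flag-CSE4 of batch 2 (adjusted p 0.147) or batch 3 (adjusted p 0.133), and it was under the fold limit with batch as a replicate block (log2 0.54, adjusted p 0.0256). At t0 the gene was at 53.8, 46.2 and 35.7 CPM in psh1Δ pGAL-3Flag-CSE4 and 41.5 and 34.1 CPM in pGAL-3Flag-CSE4, and it lay between 22.1 and 24.4 CPM in WT at t2. The call was lost under 6 of 15 alternatives, also with only the 5 libraries (adjusted p 0.118) and in batches 2 and 3 only (log2 0.40, adjusted p 0.154), and the part of this gap in the differences below was not tested.

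GAL10, which encodes the epimerase of galactose breakdown, rose beside it, with 16295, 13508 and 13399 CPM in psh1Δ pGAL-3Flag-CSE4 against 9284 and 8816 CPM in pGAL-3Flag-CSE4 (log2 0.66, SE 0.12, adjusted p 0.0040). PGM2, the phosphoglucomutase that links galactose to glycolysis, also rose (log2 0.95, SE 0.28, adjusted p 0.0388). These were 2 of the 10 galactose genes measured (20%, beside 3.14% of all genes), and the other 8 were not called. PGM2 is also counted in the general stress list below. Of the 10, 7 had a positive log2 fold change and 3 a negative one. Among those 8, GAL2 and GAL3 had log2 fold changes of 0.48 each, under the fold limit (adjusted p 0.0400 and 0.0434, edgeR quasi-likelihood test). GAL1, the galactokinase, had a log2 fold change of 0.37 (adjusted p 0.0557) and GAL7, the transferase, -0.01. LEU2, the marker of the integrated plasmid, was called higher (log2 1.13, SE 0.32, adjusted p 0.0346) but its libraries overlapped: 1133, 367 and 610.0 CPM in psh1Δ pGAL-3Flag-CSE4 against 256.2 and 383 CPM in pGAL-3Flag-CSE4. The calls of GAL10, PGM2 and LEU2 were lost under 5, 7 and 6 of 15 alternatives.

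**Figure D2:**
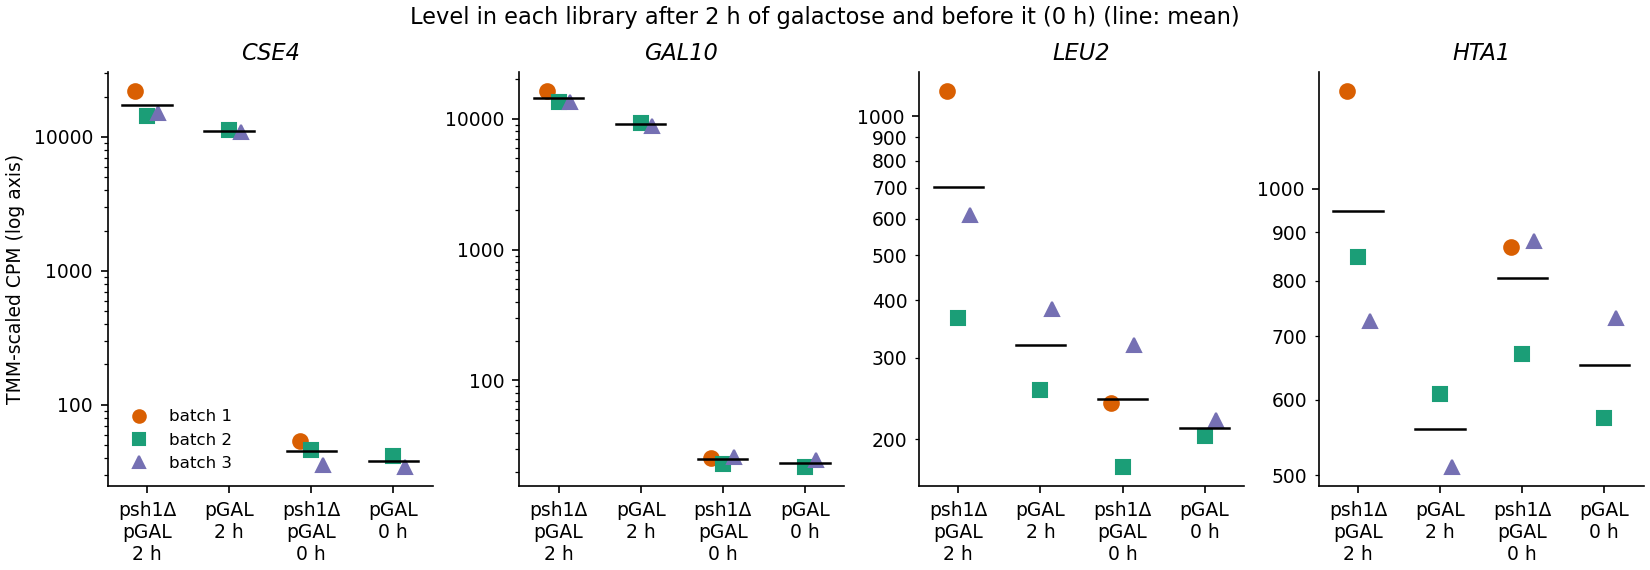
TMM-scaled CPM on a log axis for CSE4, GAL10, LEU2 and HTA1 in psh1Δ pGAL-3Flag-CSE4 and pGAL-3Flag-CSE4 at 2 h and at 0 h; points are libraries, marked by batch, and lines are group means. CSE4, GAL10 and HTA1 of all 3 psh1Δ libraries lie above both others at 2 h, while LEU2 overlaps.

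A gene was called changed when its Benjamini-Hochberg adjusted p in edgeR's quasi-likelihood test, fitted over the 17 t2 libraries of the series, was below 0.05 and its fold change was at least 1.5. By this rule 195 of 6209 genes (3.14%) rose and 102 (1.64%) fell, 4.78% in all, in psh1Δ pGAL-3Flag-CSE4 relative to pGAL-3Flag-CSE4. AIM39, the gene next to the deleted PSH1, was among those that fell (log2 -0.78 to -0.59 over the alternatives). A local effect of the deletion on AIM39 was not tested. The groups did not overlap for 194 of the 195 and for 100 of the 102. Over all genes, every psh1Δ library lay above both others in 21.7% and below both in 21.7%, which is the background for such counts. The fold was at least 2 for 70 of the genes that rose and 15 of those that fell. All 195 and all 102 had the same sign in batch 2 and in batch 3 taken alone, as a description, since these libraries also made the calls, and 104 and 47 passed the fold limit in both. The size varied between batches: the batch 1 library was the highest of the 3 for 136 of the 195 genes that rose and batch 2 the lowest for 162. The counts depend on single libraries. Without the batch 1 psh1Δ pGAL-3Flag-CSE4 library they were 70 higher and 81 lower, without that of batch 2 307 and 140, without that of batch 3 118 and 74, and with 1 pGAL-3Flag-CSE4 library left they were 18 and 33 (without batch 2) or 53 and 62 (without batch 3).

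The same contrast before galactose gave 1 called gene, PSH1 (0.0161% of genes), or 3 with batch as a replicate block, with 186 genes at an unadjusted p below 0.05. Deleting PSH1 in cells without the inducible copy, psh1Δ against WT at t2, likewise gave PSH1 alone (0.0161%), with 232 genes at an unadjusted p below 0.05. The t0 libraries of batch 3 differed from the others, so t0 libraries were kept out of the fit at t2. Summed gluconeogenesis and glyoxylate genes at t0 were 28802, 27874 and 7144 CPM in psh1Δ pGAL-3Flag-CSE4 and 29969 and 13128 CPM in pGAL-3Flag-CSE4. Such spread makes calls at t0 harder, so the counts of calls at t0 and t2 are not on an equal footing. The 195 genes that rose had a median log2 fold change of 0.87 at t2, beside 0.08 at t0 and 0.15 in psh1Δ against WT. For the 102 that fell the medians were -0.72 at t2, -0.04 at t0 and -0.06 in psh1Δ against WT. When the effect of psh1Δ with the inducible gene was tested against its effect without it, in one fit of the 17 t2 libraries, 12 genes (0.193%) passed, 5 higher and 7 lower, and 11 of them are among the genes called above. When the contrast at t2 was tested against that at t0 over all 34 libraries, 13 genes were higher (0.209%) and 14 lower (0.225%). The t0 and t2 libraries of a batch came from the same strains, but this fit had no strain term and treated them as independent. With only the libraries compared, both tests of a difference passed 0 genes. With batch as a replicate block these tests passed 41 and 75 genes. For most of the called genes the difference from the other comparisons thus did not pass a test of its own.

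**Figure D3:**
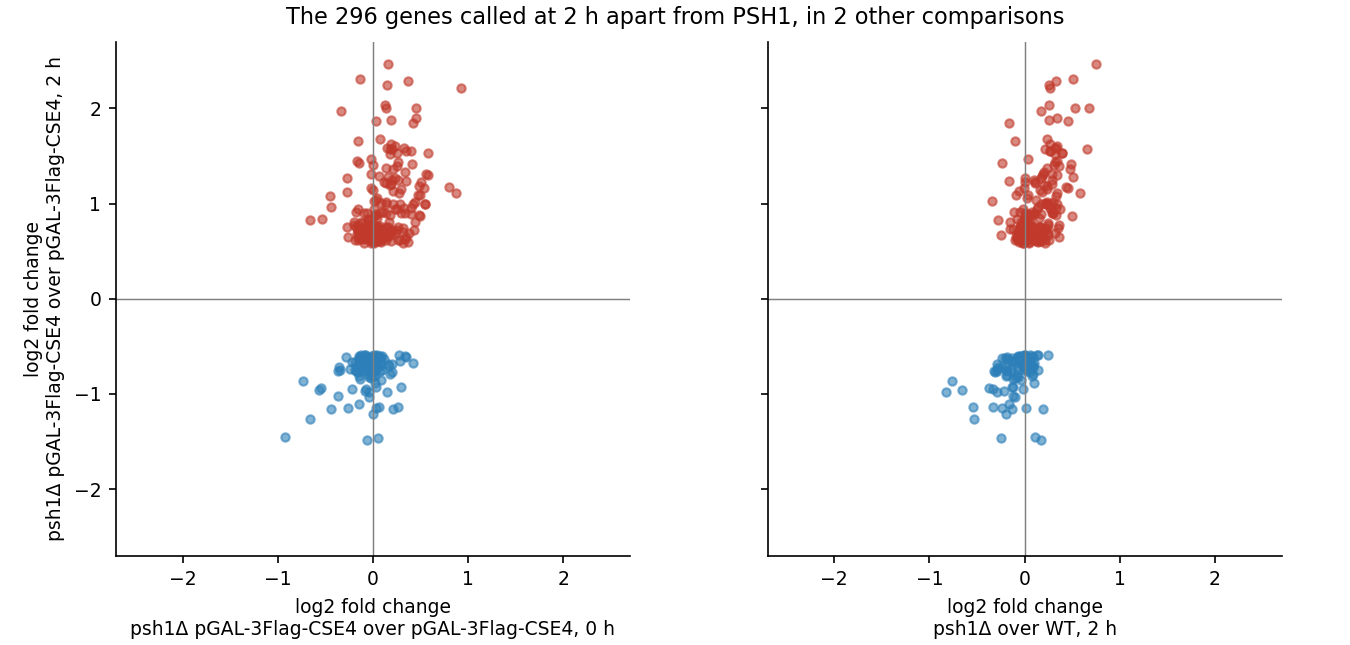
Log2 fold change of the called genes other than PSH1, in psh1Δ pGAL-3Flag-CSE4 over pGAL-3Flag-CSE4 at 2 h (vertical axes), against the same contrast at 0 h (left) and psh1Δ over WT at 2 h (right). The points spread vertically, with medians of 0.87 and -0.72, and gather near 0 on the horizontal axes.

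Most heat shock chaperone genes rose. Heat shock chaperones fold new or damaged proteins and are switched on by Hsf1 through heat shock elements in their promoters. Of the 19 measured, 16 rose (84.2%, beside 3.14% of all genes) and none fell, all 19 had a positive log2 fold change, and the median was 0.95. HSP82, the inducible Hsp90, had 2075, 1029 and 1836 CPM in psh1Δ pGAL-3Flag-CSE4 against 607 and 577 CPM in pGAL-3Flag-CSE4 (log2 1.47, SE 0.29, adjusted p 0.0065). The Hsp70 gene SSA4 had 340, 104 and 268 CPM against 73.8 and 75.9 CPM (log2 1.65, SE 0.38, adjusted p 0.0139), again with the lowest psh1Δ value in batch 2. The pGAL-3Flag-CSE4 libraries were close to each other in both genes, and the spread lay in the psh1Δ libraries.

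Co-chaperones rose as well. YDJ1, an Hsp40 that works with the Ssa proteins, had 1584, 1299 and 1756 CPM in psh1Δ pGAL-3Flag-CSE4 against 875 and 852 CPM in pGAL-3Flag-CSE4 (log2 0.83, SE 0.14, adjusted p 0.0028). STI1, which hands clients of Hsp70 to Hsp90, had 1274, 808 and 1281 CPM against 501 and 493 CPM (log2 1.16, SE 0.20, adjusted p 0.0037). The small heat shock gene HSP26 had the largest rise of the list, with 552, 108 and 170 CPM against 55.2 and 57.3 CPM (log2 2.29, SE 0.61, adjusted p 0.0281), and its batch 1 value was the highest by far: without that library the log2 fold change was 1.29 (adjusted p 0.136), and it was not called without either pGAL-3Flag-CSE4 library. HSP104, the disaggregase, was not called (log2 0.50, adjusted p 0.273). SSA1 lies on chromosome I, where the batch 1 library stands apart, and 42.1% of its 50-base windows are unique, so its log2 fold change of 1.53 is uncertain. SSA2 (41.85% unique), HSP82 (93.6%) and HSC82 (93.6%) were also under 95% unique, so their calls are uncertain too. The summed level of the list was 26752, 15525 and 23170 CPM in psh1Δ pGAL-3Flag-CSE4 and 11344 and 11108 CPM in pGAL-3Flag-CSE4 at t2, and at t0 9060, 11048 and 7081 CPM and 10245 and 8083 CPM. At t0 the groups overlapped and the list median was -0.02. The list held 5 calls without the batch 1 and 10 without the batch 3 psh1Δ pGAL-3Flag-CSE4 library, and 1 without the batch 2 and 2 without the batch 3 pGAL-3Flag-CSE4 library.

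Genes of the general stress response are driven by Msn2 and Msn4 through stress response elements. Of 20 genes 10 rose (beside 3.14% of all genes), none fell and all 20 log2 fold changes were positive, with a median of 1.07 at t2, 0.29 at t0 and 0.26 in psh1Δ against WT. PGM2, also counted among the galactose genes above, is among those 10. CTT1, the cytosolic catalase, had 1056, 537 and 968 CPM in psh1Δ pGAL-3Flag-CSE4 against 174 and 279 CPM in pGAL-3Flag-CSE4 (log2 1.90, SE 0.48, adjusted p 0.0226). In psh1Δ at t2 CTT1 was at 745, 938 and 329 CPM and in WT at 546, 774 and 272 CPM, so 2 of the 3 psh1Δ pGAL-3Flag-CSE4 libraries lay above the 6 libraries without the inducible gene, the batch 2 library lay among them, and of the pGAL-3Flag-CSE4 libraries batch 2 lay below all 6 and batch 3 just above the lowest. NTH1, the neutral trehalase, rose with less spread, at 438, 321 and 371 CPM against 186 and 189 CPM (log2 0.99, SE 0.18, adjusted p 0.0039). GLK1, glucokinase, rose by 1.25 (SE 0.24, adjusted p 0.0059) and TPS1, which makes trehalose 6-phosphate, by 0.90 (SE 0.22, adjusted p 0.0177). Without the psh1Δ pGAL-3Flag-CSE4 library of batch 1 or of batch 3, 3 genes of this list were called, without that of batch 2 15, and without pGAL-3Flag-CSE4 of batch 2 0 and of batch 3 2.

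The largest rises were ranked among called genes whose groups did not overlap and whose higher group had a mean of at least 10 counts. The first 12 were YHR007C-A (log2 2.47), HSP26, SPG4 (2.24), ACS1 (2.21), SIP18 (2.04), YDR034W-B (2.00), CYC7 (2.00), YJL045W (1.98), CTT1, FMP45 (1.88), FDH2 (1.87) and SER3 (1.85). CYC7, the second isoform of cytochrome c, was at 207, 115 and 174 CPM in psh1Δ pGAL-3Flag-CSE4 against 32.5 and 49.6 CPM in pGAL-3Flag-CSE4 (SE 0.26, adjusted p 0.00041). ACS1, acetyl-CoA synthetase, is on chromosome I and its adjusted p was 0.0484 in the fit of the 17 t2 libraries, 0.165 without the batch 1 psh1Δ pGAL-3Flag-CSE4 library and 0.0760 with the replicate block, and its call was lost under 8 of 15 alternatives. YHR007C-A, YDR034W-B, YJL045W and FDH2 rested on low levels, with at most 15.0 CPM in any of the 5 libraries (YJL045W, batch 3 of psh1Δ pGAL-3Flag-CSE4), and FDH2 shares most of its sequence with other loci. Gluconeogenesis and glyoxylate genes had 2 of 12 called higher (ACS1 and CYB2, 16.7%) and a median of 0.84, and glycolysis 4 of 17 (TDH3, PGK1, GPM1 and ENO2, 23.5%) and a median of 0.52, beside 3.14% of all genes. Of the 50-base windows of TDH3 and ENO2 75.6% and 76.4% are unique, so these calls are uncertain. GPM1, phosphoglycerate mutase, was at 3050.0, 2849 and 2814 CPM against 1632 and 1444 CPM (log2 0.91, SE 0.17, adjusted p 0.0040), and its neighbours YKL153W, which overlaps it, YKL151C and MCR1 were called higher as well (log2 0.81, 1.55 and 0.73). Reads were counted without strand as far as the kit shows, so YKL153W and GPM1 cannot be told apart.

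**Figure D4:**
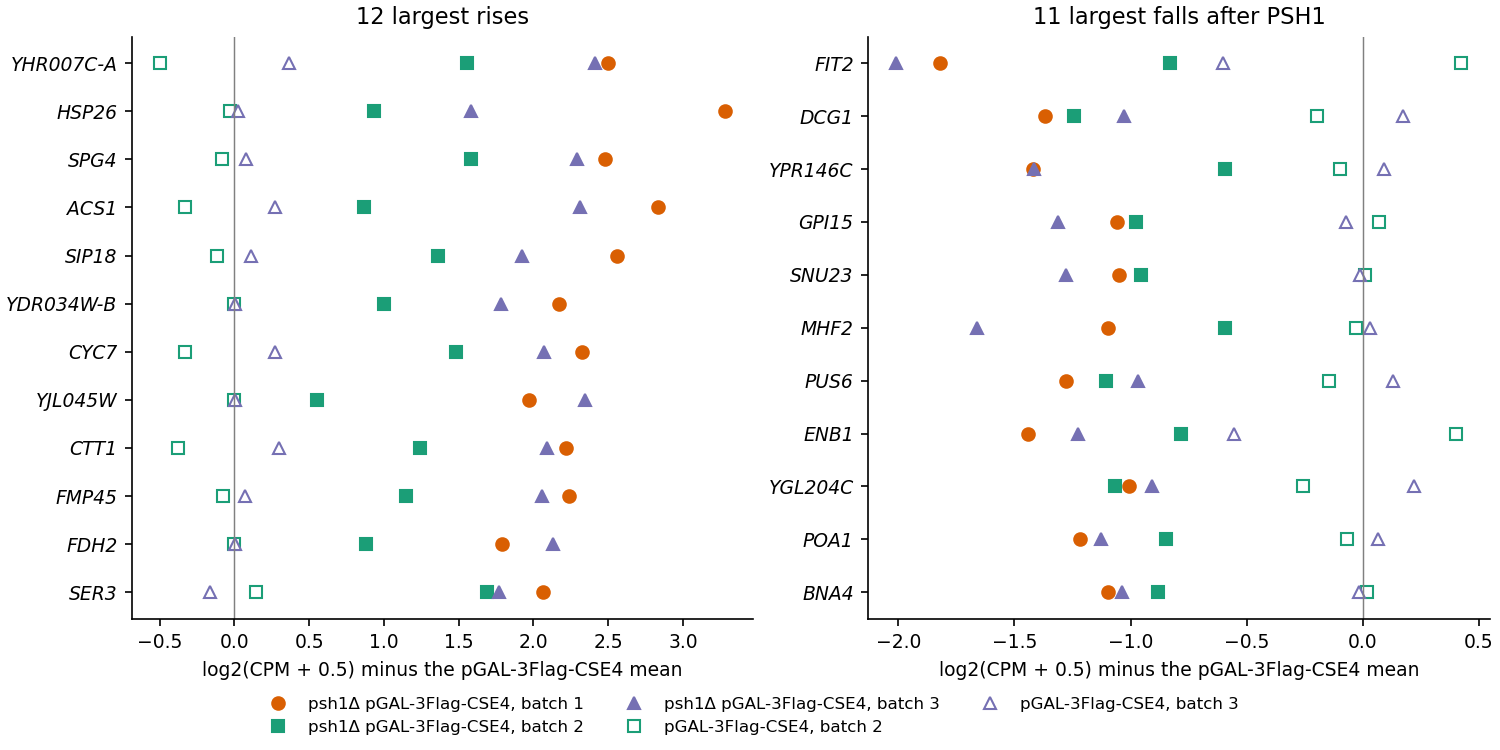
Log2(CPM + 0.5) of each library minus the log2 of the pGAL-3Flag-CSE4 mean at 2 h (horizontal axes). Shown are the 12 largest rises (left) and the 11 largest falls after PSH1 (right) among called genes whose groups did not overlap. The separation of the groups was thus a condition of the choice. FRE1, which was called lower (log2 -1.49) but whose groups overlapped, is not shown. Filled symbols are psh1Δ pGAL-3Flag-CSE4, open symbols pGAL-3Flag-CSE4. In the rises the batch 2 psh1Δ library is the closest to the open symbols in all 12 genes, while GPI15, SNU23, PUS6 and BNA4 fell by close to the same amount in all 3.

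Rpn4 is the transcription factor of the proteasome genes and binds the PACE element in their promoters. RPN4 rose, with 466, 373 and 461 CPM in psh1Δ pGAL-3Flag-CSE4 against 224 and 189 CPM in pGAL-3Flag-CSE4 (log2 1.06, SE 0.18, adjusted p 0.0028), and was called under every alternative. Of the list of 33 it was the 1 gene called, which at 3.03% is near the 3.14% of all genes. Of the 33, 32 had a positive log2 fold change, the median was 0.32 (all genes -0.00, and for the list 0.12 in batch 2 and 0.48 in batch 3 alone), and for 27 every psh1Δ library lay above both others (81.8%, beside 21.7% of all genes). RPN5, a lid subunit, had a log2 fold change of 0.52 (SE 0.10, adjusted p 0.0061) and RPT2, a base ATPase, 0.52 (SE 0.11, adjusted p 0.0072), both under the fold limit. Outside the list, ECM29, which binds the assembled proteasome, rose (133, 104 and 143 CPM against 76.7 and 72.6 CPM, log2 0.75, SE 0.18, adjusted p 0.0165), and so did UBI4, the polyubiquitin gene (log2 0.91, adjusted p 0.0085), whose repeats leave 81.8% of its windows unique. Both were picked after their values were seen.

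Amino acid genes moved one by one. ARG1, argininosuccinate synthetase, had 535, 425 and 421 CPM in psh1Δ pGAL-3Flag-CSE4 against 201 and 214 CPM in pGAL-3Flag-CSE4 (log2 1.14, SE 0.13, adjusted p 0.00023), and at t0 281, 292 and 299 CPM against 290.4 and 294 CPM. Its difference at t2 exceeded that at t0 (adjusted p 0.0050, edgeR over all 34 libraries without a strain term). With only the libraries compared, that test passed 0 genes. LYS1, saccharopine dehydrogenase, had 157, 122 and 143 CPM against 66.6 and 78.8 CPM (log2 0.94, SE 0.14, adjusted p 0.0017), and its difference at t2 also exceeded that at t0 (adjusted p 0.0163). PCL5, the cyclin that targets Gcn4 for breakdown and was picked after its values were seen, rose by 1.28 (SE 0.20, adjusted p 0.0022). In the lists, ARG1 and ARG4 (log2 0.65, SE 0.18, adjusted p 0.0363) rose among the arginine genes, whose median was 0.25, as did 1 of 9 lysine genes (11.1%, median 0.10) and 1 of 37 other amino acid genes (SER3, 2.7%, under the 3.14% of all genes, median 0.01), and 0 of 18 methionine and sulfate and 0 of 14 purine genes, and none fell.

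SER3, the phosphoglycerate dehydrogenase of serine synthesis, had the largest difference of all genes that also passed the test against psh1Δ and WT. It stood at 273, 211 and 222 CPM in psh1Δ pGAL-3Flag-CSE4 against 71.9 and 57.9 CPM in pGAL-3Flag-CSE4 (log2 1.85, SE 0.22, adjusted p 0.00023). In psh1Δ it was at 55.9, 47.9 and 74.1 CPM and in WT at 64.1, 46.1 and 88.9 CPM, all below the 3 libraries that lacked Psh1 and made 3Flag-Cse4. SER3 is kept low by transcription of the noncoding SRG1 through its promoter. SRG1, which overlaps SER3 in the annotation, also rose, at 19.4, 16.4 and 20.1 CPM against 10.9 and 9.27 CPM (log2 0.88, SE 0.26, adjusted p 0.0409), and was picked after its values were seen.

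Of the 9 genes for the histones H2A, H2B, H3, H4 and H1, 5 rose (HTA1, HTB1, HHT1, HHF1 and HHF2, 55.6%, beside 3.14% of all genes), none fell, and the median was 0.60 at t2 and 0.12 at t0. HTA1, for H2A, had 1266, 848 and 727 CPM in psh1Δ pGAL-3Flag-CSE4 against 609 and 510 CPM in pGAL-3Flag-CSE4 (log2 0.75, SE 0.18, adjusted p 0.0150). HTB1, for H2B, had 1139, 916 and 669 CPM against 619 and 495 CPM (log2 0.69, SE 0.18, adjusted p 0.0273). Batch 1 was the highest in both, as it was for CSE4, and without that library, without either pGAL-3Flag-CSE4 library or with only the 5 libraries fitted, none of the 9 was called (HTA1 log2 0.48 and adjusted p 0.0478 without batch 1), while 8 were called without the batch 3 psh1Δ pGAL-3Flag-CSE4 library. The 2 genes each for H3 and H4 share sequence (87.9% and 78.7% of their windows are unique), so reads may be split between HHT1 and HHT2 and between HHF1 and HHF2. HTZ1, for H2A.Z, was not called (log2 0.27, adjusted p 0.199), and neither was any of the 25 genes of H2A.Z, SWR1 and INO80. Of the 22 genes of Cse4 chaperones and turnover only PSH1 was called. Of 50 kinetochore and checkpoint genes 1 was called higher (2%) and 1 lower (2%), near the 3.14% and 1.64% of all genes. CTF19, an inner kinetochore subunit, was the one called higher (log2 0.64, adjusted p 0.0453), a call lost under 6 of 15 alternatives. DAD3, of the Dam1 ring, was the one called lower (log2 -0.68, SE 0.14, adjusted p 0.0073), a call lost under 2 of 15.

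**Figure D5:**
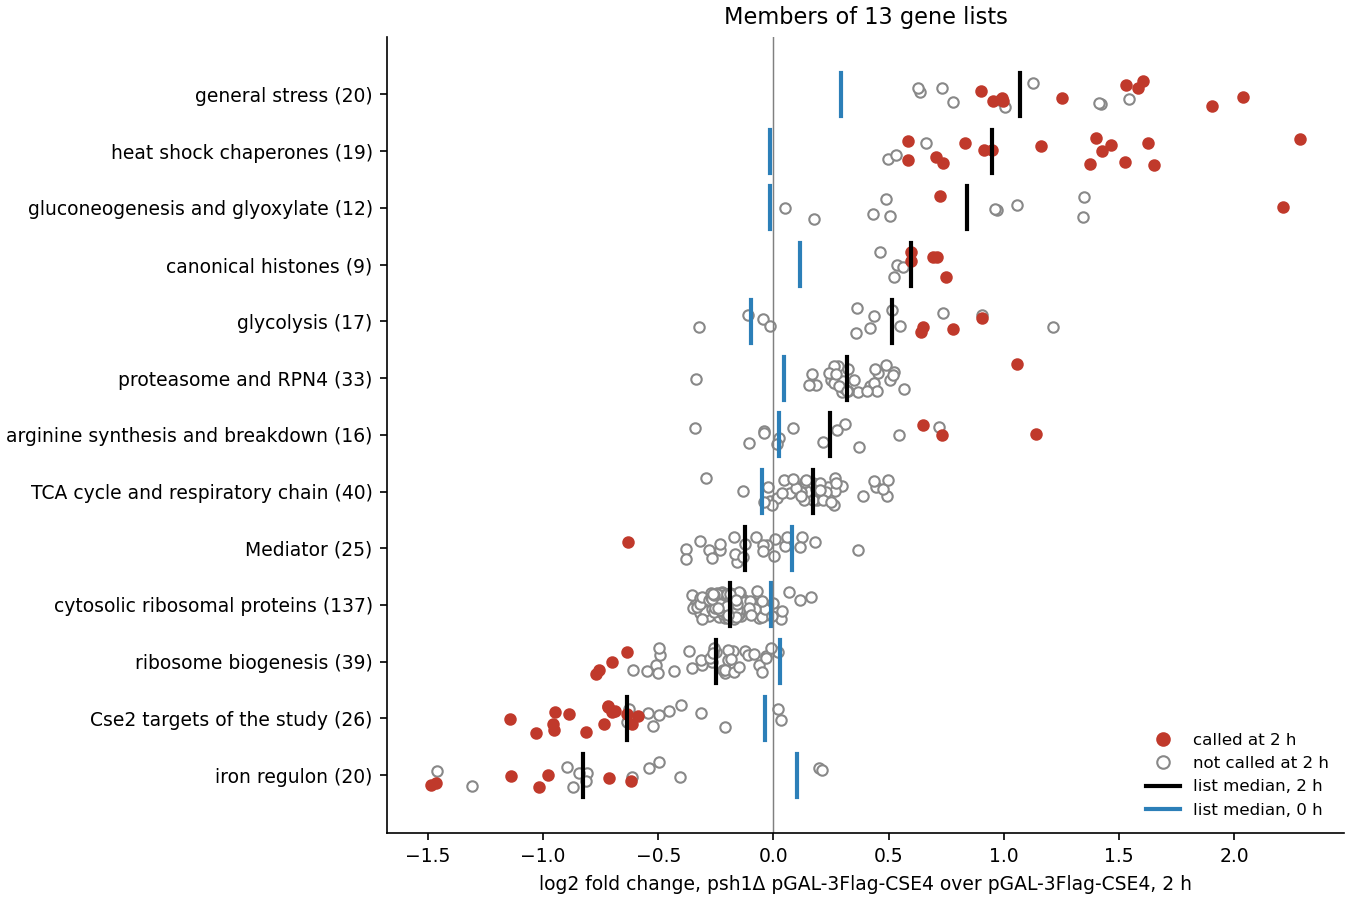
Log2 fold change of psh1Δ pGAL-3Flag-CSE4 over pGAL-3Flag-CSE4 at 2 h (horizontal axis) for the members of 13 gene lists, with the number measured in brackets; filled points were called, black bars are list medians at 2 h and blue bars those at 0 h. The medians run from 1.07 for general stress to -0.83 for the iron regulon at 2 h and lie between -0.10 and 0.29 at 0 h.

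Some iron uptake genes fell. The iron regulon is switched on by Aft1 when iron is short. Of 20 genes 7 fell (35.0%, beside 1.64% of all genes), none rose, and the median was -0.83 at t2, 0.10 at t0 and -0.17 in psh1Δ against WT. FRE6, a vacuolar iron reductase, had 52.6, 60.5 and 52.4 CPM in psh1Δ pGAL-3Flag-CSE4 against 121 and 94.9 CPM in pGAL-3Flag-CSE4 (log2 -0.98, SE 0.13, adjusted p 0.00045) and was called under every alternative. ENB1, a siderophore transporter, had 59.8, 94.96 and 69.6 CPM against 216 and 111 CPM (log2 -1.14, SE 0.27, adjusted p 0.0170). FIT2, a cell wall protein that retains siderophores, had 563, 1118 and 494 CPM against 2667 and 1308 CPM (log2 -1.47, SE 0.45, adjusted p 0.0498), and it was not called under 12 of 15 alternatives, the replicate block among them (adjusted p 0.0685). The regulon differed widely between batches of the same genotype, which were different strains. Its summed level was 6251, 10007 and 5743 CPM in psh1Δ pGAL-3Flag-CSE4 and 16232 and 9871 CPM in pGAL-3Flag-CSE4 at t2, so the groups overlapped, and at t0 it was 25151, 35983 and 6941 CPM against 25051 and 16298 CPM. Of the 20 genes, 2 were called without the batch 1 or the batch 3 psh1Δ pGAL-3Flag-CSE4 library, 13 without that of batch 2, and 1 without pGAL-3Flag-CSE4 of batch 2, the library with the highest sum of the 5 at t2.

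The genes that fell were on the whole more weakly expressed than those that rose. The 102 genes that fell had a median of 35.8 CPM in pGAL-3Flag-CSE4, beside 79.1 CPM for the 195 that rose and 53.6 CPM for all genes. PUS6, a tRNA pseudouridine synthase, had 15.8, 17.9 and 19.7 CPM in psh1Δ pGAL-3Flag-CSE4 against 35.2 and 42.7 CPM in pGAL-3Flag-CSE4 (log2 -1.14, SE 0.12, adjusted p 0.00013). In psh1Δ at t2 it was at 36.5, 36.5 and 40.4 CPM and in WT at 38.6, 35.4 and 38.4 CPM, so all other libraries stood near pGAL-3Flag-CSE4. GPI15, of the first step of GPI anchor synthesis, had 9.30, 9.87 and 7.71 CPM against 20.9 and 18.9 CPM (log2 -1.16, SE 0.17, adjusted p 0.0011). BNA4, kynurenine 3-monooxygenase of NAD synthesis, had 20.2, 23.5 and 21.1 CPM against 44.4 and 43.3 CPM (log2 -1.03, SE 0.14, adjusted p 0.00047). POA1, a phosphatase of tRNA splicing by-products, had 9.30, 12.2 and 9.95 CPM against 21.2 and 23.3 CPM (log2 -1.10, SE 0.14, adjusted p 0.00038). In each of these genes the 3 psh1Δ libraries were close together, batch 1 included, and each was called under all 15 alternatives.

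Other genes called under all 15 alternatives were, among the falls, PSH1, DCG1, SNU23 (a spliceosome protein), FRE6, BNA7, MDM30, DBR1 (the lariat debranching enzyme), YCR090C, YUR1, HCS1 and LTP1, and among the rises YKL151C, PCL5, ARG1, HPF1, RPN4, LYS1, NRD1 and YDJ1, which makes 15 falls and 8 rises in all. BNA7, which acts in the same pathway as BNA4, had a like value in psh1Δ against WT (log2 -0.65 there and -0.96 in psh1Δ pGAL-3Flag-CSE4 against pGAL-3Flag-CSE4). NRD1, an RNA-binding protein that ends transcription of short and noncoding RNAs, had 322, 286 and 313 CPM in psh1Δ pGAL-3Flag-CSE4 against 163 and 164 CPM in pGAL-3Flag-CSE4 (log2 0.90, SE 0.10, adjusted p 0.00020). Of 5 genes whose promoter or body the study examined by ChIP or PCR, SLP1 fell (log2 -0.92, SE 0.20, adjusted p 0.0103), and SAP4 (log2 0.10), RDS1 (-0.46), UTH1 (0.00) and ARE1 (-0.12) were not called.

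The study picked 26 targets of Cse2, a Mediator subunit, because they were lower in these psh1Δ pGAL-3Flag-CSE4 libraries, so their direction is not independent evidence. Of them 15 fell (57.7%), none rose, and the median was -0.64 at t2 and -0.04 at t0. CSE2 itself had 8.09, 8.19 and 6.70 CPM in psh1Δ pGAL-3Flag-CSE4 against 10.2 and 9.61 CPM in pGAL-3Flag-CSE4 and was not called (log2 -0.38, adjusted p 0.187). Of the 25 Mediator subunits 1 was called lower (4%, beside 1.64% of all genes), SRB4 of the head (log2 -0.63, SE 0.14, adjusted p 0.0109). The ribosome biogenesis list had 4 of 39 called lower (RIX1, BUD22, SYO1 and TSR4, 10.3%, beside 1.64% of all genes), 1 with a positive log2 fold change, and a median of -0.25. TSR4, and HCR1 and RRP6, which were not called, are also among the Cse2 targets above. The direction of these shared genes is thus not independent evidence either. Of the 137 cytosolic ribosomal protein genes none was called, the median was -0.19, and for 96 every psh1Δ library lay below both others (beside 21.7% of all genes).

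The remaining lists held few calls, to be read beside the 3.14% of all genes called higher. DNA damage genes had 2 of 17 higher, RNR3, the damage-induced ribonucleotide reductase subunit (29.7, 22.1 and 26.4 CPM in psh1Δ pGAL-3Flag-CSE4 against 14.6 and 14.4 CPM in pGAL-3Flag-CSE4, log2 0.83, SE 0.23, adjusted p 0.0349), and MAG1, a DNA glycosylase (log2 0.77, adjusted p 0.0289), and a median of 0.37. Cell wall genes had 2 of 17 higher, CWP1 (log2 1.02, SE 0.17, adjusted p 0.0028) and SED1 (log2 0.69, SE 0.19, adjusted p 0.0320), both mannoproteins of the wall. Of 16 phosphate genes GIT1 was called higher (log2 0.78, adjusted p 0.0339), and of 9 auxotrophic marker genes LEU2. None of the 26 cyclins and cell cycle regulators, 40 genes of the tricarboxylic acid cycle, respiratory chain and ATP synthase, 6 MATa, 3 MATalpha and 14 pheromone response genes was called. Of those 40 genes 34 had positive values, and the median was 0.17.

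Promoters of the called genes were searched for 5 known motifs, chosen after the values were seen, in the 300 bases before each annotated start, on both strands. The stress response element AGGGG was in 93 of the 195 promoters of genes that rose (47.7%), in 14 of 102 of genes that fell (13.7%) and in 1376 of all 6209 (22.2%). The heat shock element TTCNNGAA was in 14 of the 19 chaperone promoters (73.7%), 32 of the 195 (16.4%) and 819 of all (13.2%). The proteasome element PACE, GGTGGCAAA, was in 27 of 33 promoters of the proteasome list (81.8%), 12 of the 195 (6.15%), 0 of the 102 and 76 of all (1.22%), and those 12 were ACS1, YBR284W, YCL042W, AHC2, BDF2, YDR154C, YPI1, MPO1, ECM29, YJL045W, UBI4 and TMC1. The Aft1 core TGCACCC was in 13 of the 20 iron regulon promoters (65.0%), 7 of the 102 (6.86%), 3 of the 195 (1.54%) and 84 of all (1.35%). The Gcn4 core TGACTC was in 11 of the 16 arginine promoters (68.8%), but in 13 of the 195 (6.67%) and 501 of all (8.07%). None of the 5 motifs contains another, and neighbouring genes that share an intergenic region share a promoter window in part. A match is a description of letters, not a site.

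The promoters below show 1 example of each motif in a gene described above, read from the R64 genome (sacCer3) on the strand of the gene, with the motif in capitals on whichever strand it was found. HSP82 is at chrXVI:98626-98925 (minus strand), CTT1 at chrVII:654334-654633 (plus strand), ECM29 at chrVIII:39784-40083 (plus strand), ARG1 at chrXV:218911-219210 (plus strand) and FIT2 at chrXV:1059231-1059530 (plus strand).
HSP82: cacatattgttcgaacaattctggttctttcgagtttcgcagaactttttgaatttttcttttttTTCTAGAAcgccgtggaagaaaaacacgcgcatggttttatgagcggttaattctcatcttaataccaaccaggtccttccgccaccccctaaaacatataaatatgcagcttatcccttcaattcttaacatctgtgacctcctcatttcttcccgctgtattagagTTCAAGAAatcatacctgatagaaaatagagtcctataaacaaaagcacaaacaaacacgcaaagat
CTT1: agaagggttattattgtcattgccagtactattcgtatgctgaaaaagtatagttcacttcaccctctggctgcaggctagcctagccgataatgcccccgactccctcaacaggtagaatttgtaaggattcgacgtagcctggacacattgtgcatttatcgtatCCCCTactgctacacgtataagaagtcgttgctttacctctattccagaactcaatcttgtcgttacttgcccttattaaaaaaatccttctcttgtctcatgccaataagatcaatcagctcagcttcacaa
ECM29: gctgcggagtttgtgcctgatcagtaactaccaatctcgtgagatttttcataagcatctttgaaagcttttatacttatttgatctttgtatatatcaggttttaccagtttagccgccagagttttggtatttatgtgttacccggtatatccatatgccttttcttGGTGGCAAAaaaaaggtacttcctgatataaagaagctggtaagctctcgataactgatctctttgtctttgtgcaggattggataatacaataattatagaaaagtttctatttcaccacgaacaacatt
ARG1: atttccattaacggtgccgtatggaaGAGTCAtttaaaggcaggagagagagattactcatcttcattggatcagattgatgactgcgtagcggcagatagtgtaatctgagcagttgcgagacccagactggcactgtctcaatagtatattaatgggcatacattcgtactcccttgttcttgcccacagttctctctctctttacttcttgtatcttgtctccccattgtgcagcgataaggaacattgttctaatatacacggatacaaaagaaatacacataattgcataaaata
FIT2: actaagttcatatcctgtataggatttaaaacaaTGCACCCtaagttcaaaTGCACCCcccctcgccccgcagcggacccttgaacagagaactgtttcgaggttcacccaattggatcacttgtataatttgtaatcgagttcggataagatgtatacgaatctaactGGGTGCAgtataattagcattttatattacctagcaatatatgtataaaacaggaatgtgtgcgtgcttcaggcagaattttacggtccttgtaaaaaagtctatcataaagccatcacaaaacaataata
The capitals mark 2 heat shock elements in HSP82, 1 stress response element in CTT1, 1 PACE element in ECM29, 1 Gcn4 core in ARG1 and 3 Aft1 cores in FIT2.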

How the data were processed

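Polyadenylated RNA was made into libraries with a kit that does not mark strand and read as single 50-base reads. Alignment by the authors used TopHat2 2.1.0 on sacCer3, with gene counts from HTSeq 0.6.1, and the deposited tables hold these counts for 6209 genes beside normalized columns and the authors' own comparisons (edgeR 3.12.0), which were not used. Counts shared by several tables were identical. Groups were taken from the sample labels.

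Counts were fitted with edgeR 4.0.16 (R 4.3.3), TMM scaling and the quasi-likelihood test, with genotype as the factor over the 17 libraries of a time point and Benjamini-Hochberg adjustment over all 6209 genes. SE is the log2 fold change divided by the square root of F. CPM used TMM factors over all 34 libraries. The procedure was tested on simulated data. The named genes are the 12 largest called changes in each direction whose groups did not overlap and whose higher group had a mean of at least 10 counts. Members of gene lists and called genes next to PSH1 or LEU2 were also named, and other genes are marked as picked after their values were seen. The result of 1 list gene is not reported here. The members and lists were chosen with earlier results of these data known.

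The labels give the replicate number as the batch, so numbers pair libraries: deviations from the group mean of same-batch t2 libraries correlated with a median of 0.19 over 40 pairs, against -0.08 over 80 pairs of different batches, and were 0.31 and 0.21 for both strains in batches 2 and 3. Same-batch values ran from -0.398 to 0.491, with 24 of the 40 over 0.1. Deviations within a group sum to 0, so the value for different batches is not independent of the same-batch value. By the study's methods replicates are independent biological replicates. Alternatives were DESeq2 1.42.0, its size factors, a likelihood ratio test, a replicate block, a filter of 10 counts in 2 libraries, no fold minimum, other sets of libraries and leaving out each library. The test of t2 against t0, the fit of batches 2 and 3 only and the fit without psh1Δ of batch 1 were added after seeing the data. Gene positions were matched to the R64 genome for 5714 genes, 99.82% with the same coordinates, and uniqueness is the percent of a gene's 50-base windows found once in that genome.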

Additional observations from a re-analysis of the deposited data

Results flagged for a closer look

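For 12 genes the effect of psh1Δ with the inducible gene (psh1Δ pGAL-3Flag-CSE4 against pGAL-3Flag-CSE4) differed from its effect without it (psh1Δ against WT) in a test of the difference over the 17 t2 libraries (edgeR quasi-likelihood test). The difference in log2 fold change was 2.01 for SER3 (1.85 with and -0.17 without the inducible gene, adjusted p 0.00771), 1.18 for HPF1 (1.09 and -0.09, adjusted p 0.0232), 0.98 for ARG1 (1.14 and 0.16, adjusted p 0.0379), 0.90 for NRD1 (0.90 and 0.00, adjusted p 0.0113) and 0.70 for AHC2 (0.62 and -0.08, adjusted p 0.0392). It was -1.35 for GPI15 (-1.16 and 0.19, adjusted p 0.0125), -1.15 for PUS6 (-1.14 and 0.01, adjusted p 0.00771), -0.98 for DBR1 (-0.89 and 0.10, adjusted p 0.0392), -0.93 for POA1 (-1.10 and -0.17, adjusted p 0.0392) and -0.93 for BNA4 (-1.03 and -0.10, adjusted p 0.0392). FMP32 differed by -0.88 (-0.74 and 0.14, adjusted p 0.0411) and AVT2 by -0.77 (-0.58 and 0.19, adjusted p 0.0392), and AVT2 alone of the 12 was under the fold limit in psh1Δ pGAL-3Flag-CSE4 against pGAL-3Flag-CSE4. CSE4 itself was called higher in psh1Δ pGAL-3Flag-CSE4 (log2 0.62), a call lost under 6 of 15 alternatives, and its part in these differences was not tested.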

How the results depend on the processing

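All 297 called genes kept their sign under all 15 alternatives, and 8 of those that rose and 15 of those that fell were called under each. Counts of called genes moved more, and the cause was not tested. Genes higher and lower in psh1Δ pGAL-3Flag-CSE4 numbered 195 and 102, against 195 and 117 with the replicate block, 113 and 52 with only the 5 libraries, 311 and 295 without a fold minimum and 32 and 44 in batches 2 and 3 only. Leaving out 1 library gave 18 to 307 higher and 33 to 140 lower. At t0 there was 1 call, against 3 with the replicate block, 2 with DESeq2 and 1 to 2 leaving out 1 library. For psh1Δ against WT there was 1, against 3 with the likelihood ratio test, 3 with DESeq2 and 1 to 4 leaving out 1 library. The difference of the psh1Δ effect with and without the inducible gene had 12 calls, against 0 with only the libraries compared (edgeR, 659 at an unadjusted p below 0.05), 22 with all 34 libraries, 41 with the replicate block, 77 with the likelihood ratio test, 82 with DESeq2 and 2 to 77 leaving out 1 library. The difference between t2 and t0 had 27, against 0 with only the libraries compared (edgeR, 729 at an unadjusted p below 0.05), 75 with the replicate block, 51 with the likelihood ratio test and 1 to 66 leaving out 1 library. Some genes that were not called changed sign near 0. With the replicate block MF(ALPHA)2 was 0.133 and INO80 0.010, with the filter UTH1 was -0.0014, without psh1Δ of batch 1 UTH1 was -0.0064, and in batches 2 and 3 INO80 was 0.023, SAP4 -0.058 and ARE1 0.026. Leaving out 1 library gave -0.107 to 0.088 for MF(ALPHA)2, -0.093 to 0.071 for INO80, -0.163 to 0.182 for UTH1, -0.054 to 0.283 for SAP4 and -0.217 to 0.029 for ARE1.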

Other observations

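Some called genes lie beside a gene called in the other direction, in 8 pairs of neighbours. DBR1, the lariat debranching enzyme, fell (log2 -0.89) and MCR1, a mitochondrial cytochrome b5 reductase, rose (0.73) in the 1 convergent pair, 159 bases apart on chromosome XI. The other 7 pairs are in tandem, among them MRPL17 (-0.65) and NRD1 (0.90) on chromosome XIV and FUR4 (0.74) and POA1 (-1.10) on chromosome II. Of 98 genes that fell and overlap no other gene, 7 (7.1%) lie beside one that rose, beside 294 of 5098 genes not called (5.8%), and of 167 that rose 24 (14.4%) lie beside another that rose. These shares are descriptions without a test.

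Of the 13 genes whose difference was higher at t2 than at t0, 4 are given here, picked after their values were seen. The test was over all 34 libraries (edgeR), without a strain term. SSC1, the mitochondrial Hsp70, was 0.95 apart on the log2 scale (0.81 at t2 and -0.12 at t0, adjusted p 0.0454), SOD2, the mitochondrial superoxide dismutase, 0.87 (0.87 and 0.01, adjusted p 0.0478), and TSA1, a peroxiredoxin, 0.85 (0.71 and -0.13, adjusted p 0.00849). SCR1, the RNA of the signal recognition particle, had 2.68 (adjusted p 0.0478) with a log2 fold change of -2.04 at t0 and 0.62 at t2, and was not called at either time.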
